A study of Mus musculus with 6 samples.

Results

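The genes described here encode matrix metalloproteinases (MMPs) and their tissue inhibitors (TIMPs) in colonies grown from mouse bone marrow. They were chosen by name as proteinases of neutrophils and macrophages together with the inhibitors, and all 10 of the 10 named genes (Mmp8, Mmp9, Mmp12, Mmp13, Mmp14, Mmp19, Mmp25, Timp1, Timp2 and Timp3) were found among the 46983 genes of the count tables. Marrow of C57BL/6 mice of 8 to 11 weeks (8 to 10 in the growth protocol) was depleted of lineage-positive cells and plated in methylcellulose, where SCF, IL-3 and IL-6 were supplied, and the colonies were harvested after 6 to 7 days. The WT group held 3 libraries that the labels name wild type and whose mice the design text gives as PsipFl/Fl, a floxed Psip1 allele. The KO group held 3 libraries labelled Psip1-KO, which the design text gives as PsipVav/Vav. Vav names a gene of blood cells whose promoter is in wide use to drive Cre recombinase. The strain, culture and harvest were given as the same for both groups. The labels do not say whether each library came from its own animal, so p-values measure the spread between libraries, which may in part be technical. The comparison addresses what loss of LEDGF/p75, the chromatin-binding protein encoded by Psip1, does in normal blood progenitors.

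MMPs are zinc-dependent endopeptidases that cut collagens, elastin and other proteins of the matrix. Most are made as inactive precursors whose propeptide blocks the zinc, and they act once that propeptide is cut or moved away. TIMPs bind the active site and block it, so the amounts of both decide how much proteolysis can occur. Neutrophils store MMP8 and MMP9 in granules made late in their maturation, while macrophages make MMP12 and other MMPs when they need them.

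A WT library was far shallower than the rest. Summed over 2 sequencing runs, WT replicate 3 had only 27909 reads in genes, and the other 5 libraries held 7056614 to 15569088. In WT replicate 3 a single read was worth 29.9 CPM, the normalised count scaled to library size, and for a count of 0 the limit used is 3 reads (one-sided, 95%), or 89.6 CPM. Its values are therefore given as reads, with the exact 95% Poisson interval where it matters, and levels are described in the 5 deep libraries. These intervals cover counting error only. Mitochondrial genes took 15.7% of the gene reads in KO replicate 2 (95% Wilson interval 15.7% to 15.8%), 9.52% in WT replicate 3 and 1.26% to 1.84% in the others. Psip1 itself stood at 89.3 and 70.0 CPM in WT libraries 1 and 2, against 14.8, 17.6 and 16.3 CPM in KO libraries 1, 2 and 3, with 3 reads in WT replicate 3, so the deep libraries match their labels (log2 fold change -2.32, SE 0.32, adjusted p = 0.0599 by edgeR's quasi-likelihood test). Marker genes of neutrophils, macrophages and mast cells were read in every library. Of 4 T and NK cell markers 2 (Cd3e and Cd3g) had 0 reads in all 6, and the list summed to at most 0.198 CPM. Of 4 B cell markers 1 (Ms4a1) had 0 reads in all 6. That list summed to 1.89 and 9.01 CPM in WT libraries 1 and 2, against 5.35, 2.37 and 0.594 CPM in KO libraries 1, 2 and 3.

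Mmp8, Mmp12 and Mmp13 lie in a cluster of MMP genes on chromosome 9, in the same orientation, and yet were read at very different levels. Their promoters are shown because Mmp12 and Mmp8 carry most of the signal of the family and Mmp13 lies in the same cluster. Means over the deeply sequenced libraries were 1217 CPM for Mmp12, 215.9 for Mmp8 and 24.4 for Mmp13. Each sequence is 300 bases, 250 before and 50 from the transcript start, 5′ to 3′ on the plus strand, taken from RefSeq on GRCm38.p6. Capitals mark 3 motifs on either strand: TGACTCA (AP-1), GAGGAA (the core bound by PU.1 and other ETS factors) and TATAA (TATA box). No match for the fourth motif searched, GGGCGG (GC box), was found in these windows. For Mmp12, which has 2 entries, the one that begins farther upstream is shown.
Mmp13 at chr9:7272264-7272563: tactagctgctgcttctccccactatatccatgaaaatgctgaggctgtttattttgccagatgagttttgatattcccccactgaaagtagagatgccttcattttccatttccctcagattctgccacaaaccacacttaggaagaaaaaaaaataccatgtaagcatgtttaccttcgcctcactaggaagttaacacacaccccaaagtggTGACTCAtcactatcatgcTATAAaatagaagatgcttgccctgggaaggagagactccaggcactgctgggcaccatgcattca
Mmp12 at chr9:7344147-7344446: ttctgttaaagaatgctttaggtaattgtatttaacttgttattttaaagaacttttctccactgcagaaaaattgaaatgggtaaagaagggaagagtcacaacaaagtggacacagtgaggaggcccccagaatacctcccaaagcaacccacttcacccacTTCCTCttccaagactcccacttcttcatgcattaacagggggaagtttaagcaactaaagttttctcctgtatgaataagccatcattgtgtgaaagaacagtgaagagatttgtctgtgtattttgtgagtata
Mmp8 at chr9:7558179-7558478: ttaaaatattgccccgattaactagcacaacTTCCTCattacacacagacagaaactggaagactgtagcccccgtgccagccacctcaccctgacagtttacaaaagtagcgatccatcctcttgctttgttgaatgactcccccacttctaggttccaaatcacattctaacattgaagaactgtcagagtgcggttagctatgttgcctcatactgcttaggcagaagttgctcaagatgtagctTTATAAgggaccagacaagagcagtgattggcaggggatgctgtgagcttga

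The AP-1 motif stood in the Mmp13 window, 35 bases before the start, with a TATA motif after it at 16 bases before the start. Of 32851 mouse promoter windows of this length, 5.2% held the AP-1 motif, 28.3% the GAGGAA core, 24.9% TATAA and 35.7% the GC box. The GAGGAA core was found 86 bases before the Mmp12 start and 219 bases before the Mmp8 start, in each case on the minus strand. The Mmp8 window held TATAA on both strands over the RefSeq start used here. In GENCODE M21 the Mmp8 gene starts farther downstream, at 7558456, so the positions given for Mmp8 depend on the annotation. The downstream Mmp12 entry (chr9:7347124-7347423) held the AP-1 motif 44 bases before its start. It also held TATAA on both strands, with first bases at positions 2 and 5 counted from the start. Which Mmp12 start these colonies used was not tested. In all, 8 of the 10 genes matched the promoter table, and Mmp9 and Mmp19 did not. G and C made up 68.7%, 67.0% and 55.0% of the Timp2, Timp3 and Timp1 windows, against a median of 52.7% over all windows. Proteinases lay on both sides of that median. Mmp25 and Mmp14 stood at 63.3% and 56.0%, while the windows shown for Mmp12, Mmp13 and Mmp8 stood at 38.7%, 43.7% and 46.0%. A motif match describes the sequence and not binding of a factor, which was not measured.

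Along the 427072 bases from Mmp13 to Mmp7 lie 10 MMP genes, and reads came from only some of them. Mmp13, Mmp12, Mmp8 and Mmp27 were read in each of the 5 deep libraries, with 1218, 61403, 12685 and 220 reads in sum. Mmp1b, Mmp3, Mmp1a and Mmp20 had 0 reads in these libraries, and Mmp10 and Mmp7 had 6 and 7. In gene order, Mmp1b, Mmp3, Mmp1a and Mmp10 come between Mmp12 and Mmp8, the most abundant pair, and all stood at or near 0. Mmp1b overlaps the end of Mmp12 on the opposite strand, with 157 exonic bases in common. Mmp1a is annotated as a polymorphic pseudogene. Mmp27, a stromelysin-like gene, begins 2910 bases beyond the end of Mmp8 and stood at 1.96 to 6.96 CPM.

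**Figure D1:**
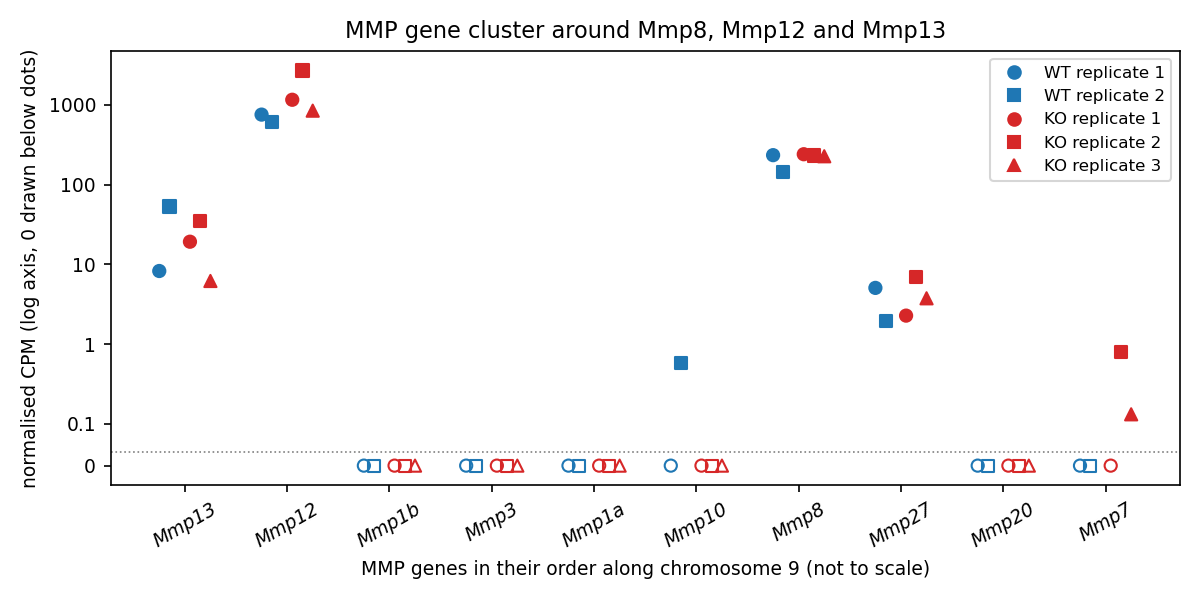
Normalised CPM (log axis) of the 10 MMP genes of the chromosome 9 cluster in gene order, 1 point per deep library, WT in blue and KO in red, with open symbols on the lowest line for 0 reads. Mmp12 lies above 600 CPM in each library and Mmp8 above 140, whereas Mmp1b, Mmp3, Mmp1a and Mmp20 have 0 reads in all 5.

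Set per length, the family was dominated by a pair of proteinases. Levels per kb, which are normalised CPM divided by the kilobases of exon of a gene, averaged 168.1 ± 118.1 for Mmp12 and 89.0 ± 16.6 for Mmp8 (SD, n = 5 deep libraries of both genotypes). Mmp12 was above Mmp8 in each of the 5 libraries on this scale. Mmp19 (32.1 ± 16.5) and Timp2 (31.4 ± 9.59) followed and did not differ beyond their spread. Mmp13 (9.13 ± 7.39), Mmp9 (6.54 ± 5.50) and Mmp14 (6.20 ± 4.21) formed the next group, again within each other's spread. Timp3 (2.18 ± 0.594), Mmp25 (2.14 ± 1.40) and Timp1 (1.64 ± 1.54) were lowest. Divided by the longest transcript instead, Mmp14 stood at 11.4 CPM per kb, above Mmp13 and Mmp9. Among the 12271 tested genes with a known length, 98.2% had a lower mean level per kb than Mmp12, 96.3% a lower one than Mmp8 and 19.2% a lower one than Timp1.

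**Figure D2:**
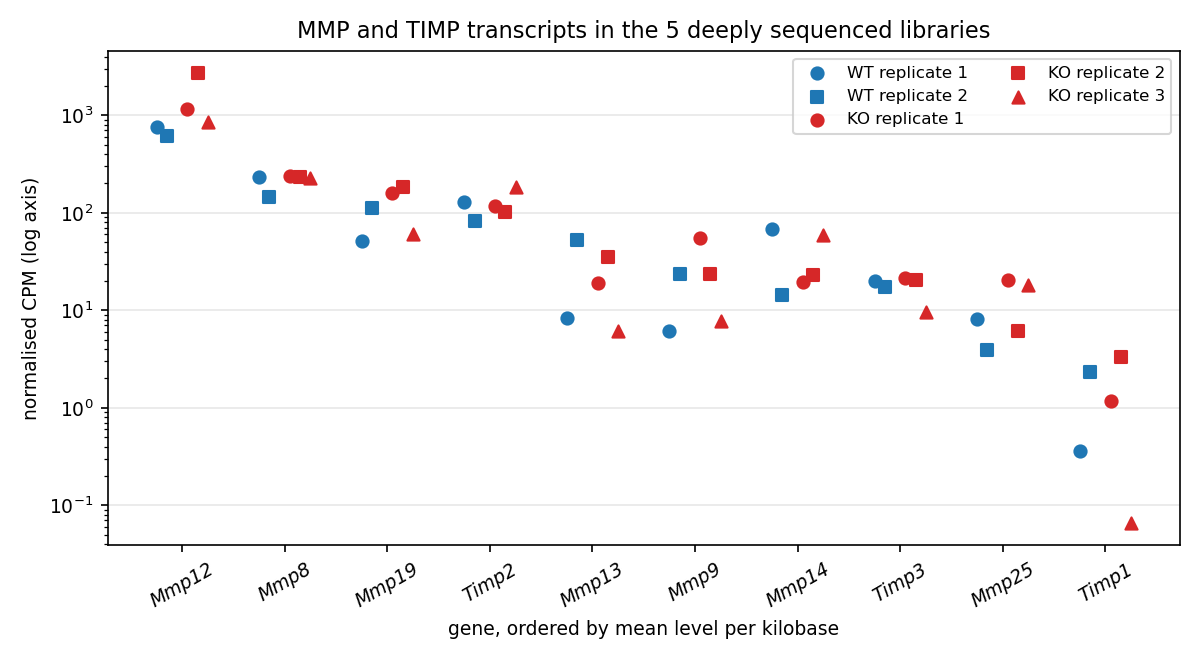
Normalised CPM (log axis) of the 10 genes in the 5 deep libraries, with 1 point per library, WT in blue and KO in red, and genes ordered by mean level per kilobase. The Mmp8 points lie close together, the Timp1 points span from 0.0660 to 3.32 CPM, and Mmp12 is the 1 gene whose KO points all lie above both WT points.

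Between the genotypes, none of the 10 genes passed the test, although all 10 had enough reads to be tested. The quasi-likelihood test of edgeR, with genotype as the only term and all 6 libraries, gave each of the 10 an adjusted p = 1 (Benjamini-Hochberg, 12292 genes tested). In the same test 0 genes were called higher in KO and 0 lower, so the share called among all genes is 0%. DESeq2 and limma-voom also called 0 of the 10. At an unadjusted p under 0.05 edgeR had 1 of the 10, Mmp25, where 1.45% of all tested genes had such a p. Of the 10 fitted log2 fold changes 7 were positive and 3 negative, with a median of 0.21, beside a median of 0.01 over all genes tested. In 1 of the 10 genes (Mmp12) every KO library lay above both deep WT libraries, as it did in 4.79% of all tested genes, and in 0 of the 10 did every KO library lie below them, as in 3.87% of all tested genes.

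**Figure D3:**
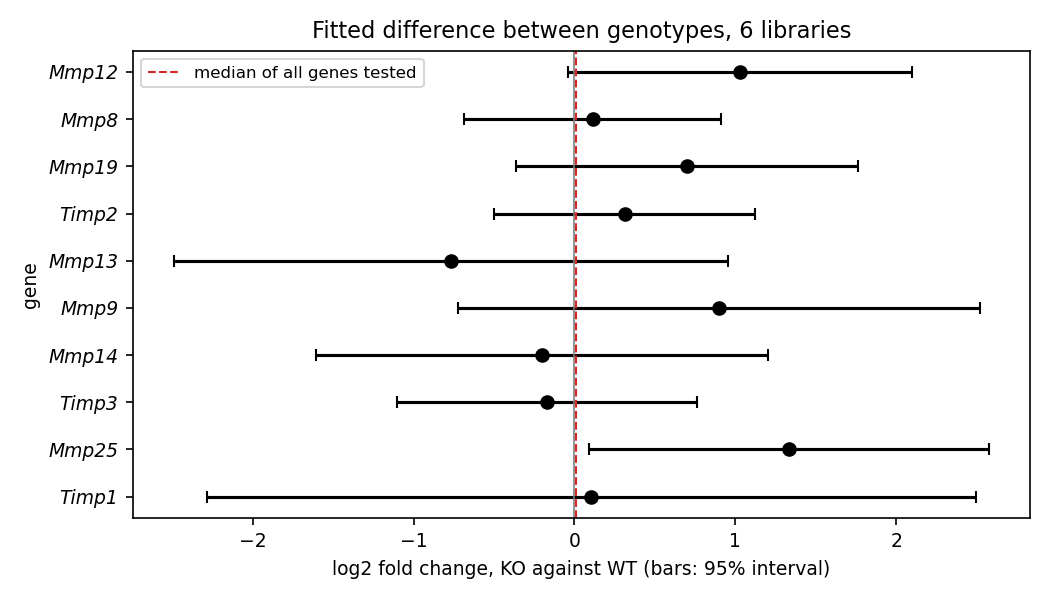
Fitted log2 fold change of KO against WT with its 95% interval for the 10 genes, from all 6 libraries, with the median of all genes tested as a dashed line. The interval of Mmp25 (0.09 to 2.58) lies above 0 before adjustment for the number of genes, and the other 9 intervals include 0.

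Mmp8, the neutrophil collagenase of specific granules (ENSMUSG00000005800.2, chromosome 9, 7558456 to 7568485, plus strand, GRCm38), was the steadiest of the proteinases. It stood at 234.6 and 144.5 CPM in WT libraries 1 and 2, against 241.0, 232.2 and 227.2 CPM in KO libraries 1, 2 and 3, a KO mean of 233.5 ± 6.98 (SD, n = 3). WT replicate 2 was the low library, and the other 4 lay between 227.2 and 241.0 CPM. WT replicate 3 held 11 reads, where the mean of the deep WT libraries would give 6.35 and the KO mean 7.82. KO against WT, the log2 fold change was 0.11 (SE 0.36, 95% interval -0.69 to 0.91, adjusted p = 1 by edgeR's quasi-likelihood test), and without WT replicate 2 it was -0.16. Ltf, the lactoferrin of specific granules, stood at 2254 and 7819 CPM in WT libraries 1 and 2, against 6043, 1821 and 1603 CPM in KO libraries 1, 2 and 3, so WT replicate 2 was the highest library for Ltf and the lowest for Mmp8.

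Mmp9, gelatinase B of the tertiary granules (ENSMUSG00000017737.2, chromosome 2, 164940780 to 164955850, plus strand), varied 8.85-fold among the deep libraries. It stood at 6.17 and 23.7 CPM in WT libraries 1 and 2, against 54.6, 23.6 and 7.72 CPM in KO libraries 1, 2 and 3, and WT replicate 3 held 1 read. KO replicate 1 was high, WT replicate 1 and KO replicate 3 were low, and the groups overlapped. KO against WT, the log2 fold change was 0.90 (SE 0.74, 95% interval -0.73 to 2.52, adjusted p = 1 by edgeR), and without KO replicate 1 it was -0.0022. The profile closest to that of Mmp9 was that of Retnlg, a resistin-like gene of mature neutrophils, at 2.90 and 11.7 CPM in WT libraries 1 and 2 and 32.3, 13.4 and 3.83 CPM in KO libraries 1, 2 and 3.

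Closeness was the root mean square distance between log2 profiles centred over the 5 deep libraries, searched over 9824 genes of at least 5 CPM. It was 0.0960 log2 units for Mmp9 and Retnlg, where the profile of Mmp9 itself varied by 1.12. With 5 libraries and 9824 genes, a near neighbour can be found for many profiles, so these neighbours describe the libraries only. The 6 mature neutrophil markers summed to 32704 and 62744 CPM in WT libraries 1 and 2, against 57155, 32137 and 25750 CPM in KO, nearly all of it S100a8 and S100a9. Without these, the other 4 summed to 650.1 and 823.1 CPM in WT and to 1148, 1164 and 621.3 CPM in KO. For Mmp9, KO replicate 2 stood level with WT replicate 2, while in the sum of 6 it stood level with WT replicate 1. Their part in the Mmp9 levels was not tested. In these bulk samples fewer cells of a type and less RNA per cell cannot be told apart. The ratio of Mmp8 to Mmp9 per kb ran from 6.44 in KO replicate 1 to 55.5 in WT replicate 1.

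Mmp25, a membrane-anchored MMP of leukocytes (ENSMUSG00000023903.7, chromosome 17, 23628311 to 23645277, minus strand), had the largest fitted change of the 10. It held 112 and 40 reads in WT libraries 1 and 2, or 8.13 and 3.92 CPM, and 259, 39 and 276 reads in KO libraries 1, 2 and 3, or 20.4, 6.17 and 18.2 CPM. KO replicates 1 and 3 lay above both WT libraries, while KO replicate 2 lay between them. WT replicate 3 held 0 reads, for which the limit of 3 reads is 89.6 CPM. The log2 fold change was 1.34 (SE 0.57, 95% interval 0.09 to 2.58), with an unadjusted p = 0.0373 and an adjusted p = 1 by edgeR's quasi-likelihood test. Over 17 alternatives the fitted value ran from 0.95 to 2.02 with adjusted p from 0.584 to 1. Nearest in profile were Rnf144b at a distance of 0.354, Scamp5 at 0.3775 and Siglec1, a sialic acid receptor of macrophages, at 0.460. The profile of Mmp25 itself varied by 0.863.

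Mmp12, macrophage elastase (ENSMUSG00000049723.14, chromosome 9, 7344381 to 7369499, plus strand), was the most abundant member and the only one in which the genotypes separated in the deep libraries. It stood at 756.6 and 614.6 CPM in WT libraries 1 and 2, against 1161, 2703 and 847.7 CPM in KO libraries 1, 2 and 3, a KO mean of 1571 ± 993.1 (SD, n = 3). KO replicate 2 stood far above the rest, and KO replicate 3 lay nearest to the WT libraries. WT replicate 3 held 33 reads (interval 22.7 to 46.3), where the mean of the deep WT libraries would give 23.0 and the KO mean 52.6. Scaled to library size, this count lay above KO replicate 3, and its interval includes the level of KO replicate 3. The separation therefore holds in the deep libraries only. The log2 fold change was 1.03 (SE 0.49, 95% interval -0.04 to 2.10), with an unadjusted p = 0.0580 and an adjusted p = 1 by edgeR. Without KO replicate 2, the library with the high mitochondrial share, it was 0.39 (SE 0.43). Without both that library and WT replicate 3, an alternative chosen after seeing the data, it was 0.55 (SE 0.33).

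Marker sums of several cell types were also highest in KO replicate 2, or higher in KO, without any marker in these lists passing the test. The 6 dendritic cell markers summed to 159.9 and 173.7 CPM in WT libraries 1 and 2, against 221.7, 387.6 and 212.6 CPM in KO libraries 1, 2 and 3. Among them Siglech had 1 read in the 5 deep libraries, and the fitted change was positive in all 4 markers that could be tested, with 0 called. The 5 osteoclast markers summed to 50.3 and 47.2 CPM in WT and 84.3, 118.3 and 88.7 CPM in KO, with Calcr, the calcitonin receptor, at 0 in every library. Ctsk, cathepsin K, carried this separation, since the other 4 summed to 19.7 and 13.3 CPM in WT and to 17.5, 28.3 and 12.9 CPM in KO. The 8 macrophage markers overlapped between the groups, at 1242 and 902.1 CPM in WT and 1185, 1350 and 1581 CPM in KO. The 9 mast cell and basophil markers summed highest in KO replicate 2, at 9192 CPM against 3037 to 5300 CPM in the other deep libraries, although only 4 of the 9 were highest there and Kit was lowest. Their part in the Mmp12 levels was not tested. The closest profiles were those of Slc9a5, Akr1b8 and Plekhn1, at distances of 0.139 to 0.169 log2 units.

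Mmp13, an interstitial collagenase (ENSMUSG00000050578.9, chromosome 9, 7272514 to 7283331, plus strand), was highest in WT replicate 2, the library with the least Mmp12. It stood at 8.27 and 53.2 CPM in WT libraries 1 and 2, against 19.3, 35.1 and 6.20 CPM in KO libraries 1, 2 and 3, and WT replicate 3 held 3 reads. WT replicate 2 was the highest and KO replicate 3 the lowest, an 8.57-fold span. Fitted over all 6 libraries, the log2 fold change was -0.77 (SE 0.78, 95% interval -2.49 to 0.95, adjusted p = 1 by edgeR), and without WT replicate 2 it was 0.75. Of the 8 macrophage markers 3 (the complement genes C1qa, C1qb and C1qc) were also highest in WT replicate 2 and 4 (Adgre1, Cd68, Marco and Msr1) were lowest there, as was the sum of the list at 902.1 CPM, and their part in the Mmp13 levels was not tested. The nearest profiles were those of Etfb, Mif and the globin gene Hbb-bt, at distances of 0.308 to 0.318.

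Mmp14, a membrane-type MMP that activates the precursor of MMP2 (ENSMUSG00000000957.9, chromosome 14, 54431612 to 54445364, plus strand), split the libraries in a way that cut across genotype. It stood at 68.7 and 14.4 CPM in WT libraries 1 and 2, against 19.4, 22.9 and 59.3 CPM in KO libraries 1, 2 and 3, with 0 reads in WT replicate 3. WT replicate 1 and KO replicate 3 were high and the other 3 were low. Of 4 monocyte markers 1 (Csf1r, the receptor for macrophage colony-stimulating factor) lay above the other 3 deep libraries in both WT replicate 1 and KO replicate 3, at 485.1 and 442.3 CPM against 132.6 to 168.8 CPM. Of 8 macrophage markers 1 (Adgre1) did so, at 365.9 and 416.2 CPM against 108.6 to 175.0 CPM, and other members ran otherwise, such as the monocyte marker Ccr2, which was lowest in these libraries. Of 4 eosinophil markers 3 did so, and the list summed to 1461 and 437.2 CPM in WT and 279.2, 776.0 and 1467 CPM in KO. Csf1r, Adgre1 and Ccr2 were picked after their values were seen, and their part in the Mmp14 levels was not tested. Fitted over all 6 libraries, the log2 fold change was -0.20 (SE 0.64, 95% interval -1.61 to 1.20, adjusted p = 1 by edgeR). Without WT replicate 1 it was 1.36, with an unadjusted p = 0.0371 and an adjusted p = 0.824. The closest profiles were those of Pde7b, Ptprj, a receptor phosphatase, and Luzp1, at distances of 0.0806 to 0.0958 against a spread of 0.887 for Mmp14 itself.

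Mmp19 (ENSMUSG00000025355.6, chromosome 10, 128790910 to 128800824, plus strand), which cleaves basement membrane proteins, was the third proteinase in level per kb. It stood at 51.5 and 112.2 CPM in WT libraries 1 and 2, against 159.1, 183.2 and 60.6 CPM in KO libraries 1, 2 and 3, and WT replicate 3 held 3 reads. KO replicates 1 and 2 were high, and WT replicate 1 and KO replicate 3 were low, the reverse of Mmp14. The log2 fold change was 0.70 (SE 0.48, 95% interval -0.36 to 1.76, adjusted p = 1 by edgeR). Its exons share 789 bases with Tmem198b on the opposite strand, 22.3% of its exon length. Counting without strand kept 63.6% of its reads, so its level rests on the strand-specific count. The ribosomal protein gene Rps19 had the closest profile, at a distance of 0.0880.

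Among the inhibitors Timp2 supplied most of the transcripts. Timp2, which inhibits MMPs widely and also helps MMP14 activate the MMP2 precursor (ENSMUSG00000017466.9, chromosome 11, 118301069 to 118355740, minus strand), stood at 128.5 and 83.2 CPM in WT libraries 1 and 2. KO replicates 1, 2 and 3 stood at 116.4, 102.0 and 182.1 CPM (133.5 ± 42.7 on average, SD, n = 3), and WT replicate 3 held 4 reads. KO replicate 3 was highest, WT replicate 2 lowest, and the groups overlapped. KO against WT, the log2 fold change was 0.31 (SE 0.37, 95% interval -0.50 to 1.13, adjusted p = 1 by edgeR). Bst1, a surface enzyme of marrow cells, had the closest profile at a distance of 0.0543.

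Timp3, the inhibitor that binds the matrix and also blocks ADAM17 (ENSMUSG00000020044.13, chromosome 10, 86300372 to 86349506, plus strand), lay between 9.50 and 21.3 CPM. It stood at 20.0 and 17.5 CPM in WT libraries 1 and 2, against 21.3, 20.6 and 9.50 CPM in KO libraries 1, 2 and 3, and WT replicate 3 held 1 read. KO replicate 3 was low and the other 4 were close together, with a log2 fold change of -0.17 (SE 0.43, 95% interval -1.10 to 0.76, adjusted p = 1 by edgeR). Its exons share 1733 bases with Syn3 on the opposite strand, a synapsin gene that had 14 reads in the deep libraries. Counting without strand kept 44.8% of the Timp3 reads.

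Timp1, an inducible inhibitor that binds the MMP9 precursor (ENSMUSG00000001131.11, X chromosome, 20870166 to 20874735, plus strand), was scarce and the most uneven of the 10. It held 5 and 24 reads in WT libraries 1 and 2, 15, 21 and 1 reads in KO libraries 1, 2 and 3, and 0 in WT replicate 3. In CPM, KO replicate 2 stood at 3.32 (exact 95% Poisson interval 2.06 to 5.08), WT replicate 2 at 2.35 (1.51 to 3.50) and KO replicate 3 at 0.0660 (0.0017 to 0.368). These intervals of KO replicates 2 and 3 do not meet, although both carry the same label. The log2 fold change was 0.11 (SE 1.09, 95% interval -2.28 to 2.5, adjusted p = 1 by edgeR). Xist, which is read from the inactive X chromosome of females, reached 12107 reads in KO replicate 1 and 5910 in WT replicate 2, with at most 1 elsewhere. In Timp1 level these libraries lay between KO replicate 2 and the low pair WT replicate 1 and KO replicate 3. The part of sex was not tested for any of the 10 genes. The closest profile was that of Epor, the erythropoietin receptor, at a distance of 0.170.

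The sums of proteinase and inhibitor transcripts were set against each other within each library. The 7 MMPs summed to 233.8 and 206.0 CPM per kb in WT libraries 1 and 2, against 334.6, 545.9 and 245.9 in KO libraries 1, 2 and 3. The 3 TIMPs summed to 35.8 and 26.2 CPM per kb in WT and to 33.8, 32.5 and 48.0 in KO. The ratio of these sums was 6.52 and 7.88 in WT and 9.89, 16.8 and 5.12 in KO, so the genotypes overlapped, with KO replicates at both ends. Mmp12 made up 41.2% to 68.4% of the MMP sum and Timp2 made up 80.7% to 97.4% of the TIMP sum. With Mmp12 left out, the ratio was 3.61 and 4.63 in WT and 5.15, 5.31 and 2.68 in KO, so the libraries kept the same order. Per kb of the longest transcript, the ratio was 7.87 and 9.11 in WT and 11.8, 21.97 and 6.41 in KO, and Mmp12 made up 52.3% to 77.2% of the MMP sum. These are sums of transcript levels, chosen with the values known, and carry no test.

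**Figure D4:**
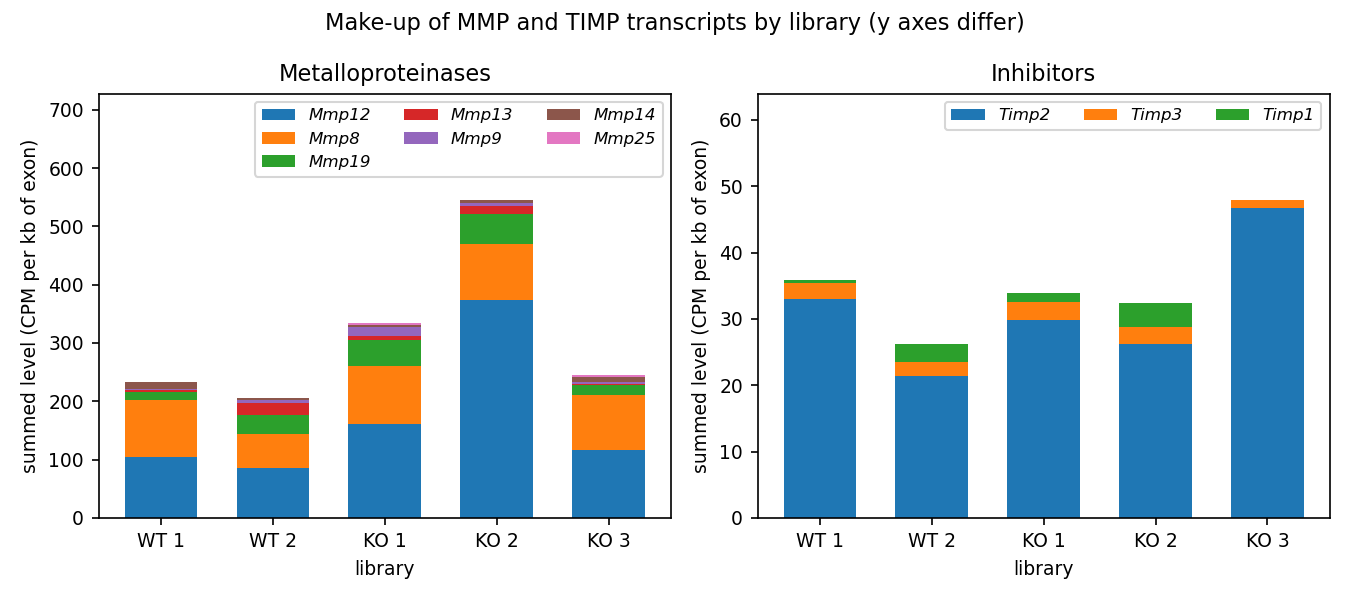
Summed level per kilobase of exon of the 7 MMPs (left) and the 3 TIMPs (right) in each deep library, stacked by gene, with different y axes. Mmp12 and Mmp8 make up most of each left bar, the KO 2 bar is tallest at 545.9 with Mmp12 as 68.4% of it, and Timp2 makes up most of each right bar.

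Other MMPs were scarce. Of 16 further MMP genes 3 could be tested, 0 were called by edgeR, 5 had 0 reads in every library, and all 16 together summed to 6.76 to 12.9 CPM per deep library. Mmp2, gelatinase A, which Mmp14 and Timp2 act on, stood at 2.69 and 2.35 CPM in WT libraries 1 and 2, against 2.20, 2.06 and 7.26 CPM in KO libraries 1, 2 and 3 (log2 fold change 0.64, SE 0.63). KO replicate 3 was high for Mmp2, Mmp14 and Timp2, and WT replicate 1 was the highest library for Mmp14 but not for Mmp2 or Timp2. Of 4 further inhibitors 2 were tested and 0 called. Reck, a membrane-bound MMP inhibitor, lay at 6.49 to 12.2 CPM in the deep libraries (log2 fold change 0.13, SE 0.46) and Tfpi2 was at -0.41 (SE 1.07).

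Partners that activate or hold MMPs did not pass the test. Of 16 such genes 14 were tested, 7 had a positive and 7 a negative log2 fold change, and 0 were called by edgeR at any p under 0.05, with or without adjustment. Lcn2, the lipocalin that forms a complex with MMP9, stood at 2499 and 2824 CPM in WT libraries 1 and 2, against 2091, 821.8 and 1822 CPM in KO libraries 1, 2 and 3 (log2 fold change -0.52, SE 0.48). Plau, the urokinase that starts the plasmin route to MMP activation, stood at 88.8 and 74.8 CPM in WT and 104.8, 139.7 and 107.2 CPM in KO (log2 fold change 0.56, SE 0.33, unadjusted p = 0.115). Prtn3, a granule serine protease, was at -0.61 (SE 0.64). The 2 genes not tested had 0 reads in all libraries.

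The related ADAM and ADAMTS proteinases gave 7 tested genes of 13, with 0 called. Adam8, a sheddase of myeloid cells, stood at 405.9 to 841.6 CPM, highest in KO replicate 2 (log2 fold change 0.41, SE 0.38), and Adam17 was at 0.00 (SE 0.55). Adamts1 had the lowest p of this list, with 3.02 (SE 0.57) and an adjusted p = 0.321 by edgeR. This change rests on few WT reads, 8, 6 and 0 in WT libraries 1, 2 and 3. In CPM, Adamts1 stood at 0.581 and 0.587 in WT libraries 1 and 2, against 5.19, 3.64 and 5.54 in KO libraries 1, 2 and 3. Of 14 genes of matrix proteins 7 were tested and 0 called. Spp1, osteopontin, an MMP substrate made by macrophages, stood at 1919 to 4528 CPM (log2 fold change 0.18, SE 0.47). Lama5, a laminin chain, was highest in KO replicate 2, at 911.1 CPM against 126.7 to 222.4 CPM in the other deep libraries (log2 fold change 1.35, SE 0.61, unadjusted p = 0.0499, adjusted p = 1). Of 16 transcription factor genes of the AP-1, ETS, C/EBP and NF-kB families all 16 were tested and 0 called, with a median log2 fold change of -0.05. Spi1, which encodes PU.1, was at 0.01 (SE 0.40), Nfkb1 at -0.13 (SE 0.42) and Cebpe, a granulocyte factor, at -0.67 (SE 0.49).

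Stromal cells, which make Mmp14, Timp2 and Timp3 in whole marrow, left few reads. Of 8 stromal markers 4 (Col3a1, Lum, Dcn and Cxcl12) had 0 reads in the 5 deep libraries, and the list summed to 14.8 and 16.2 CPM in WT libraries 1 and 2, against 34.3, 22.9 and 16.1 CPM in KO libraries 1, 2 and 3. Col1a1 supplied most of this sum, at 9.63 to 29.5 CPM. Pdgfrb was read at 2.35 to 5.38 CPM, and the part of stromal cells in the Mmp14, Timp2 and Timp3 levels was not tested. Of the 10 members 9 spanned more than the median ratio of highest to lowest deep library, 1.93 over tested genes of at least 1 CPM, and Mmp8 (1.67) was below it.

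**Figure D5:**
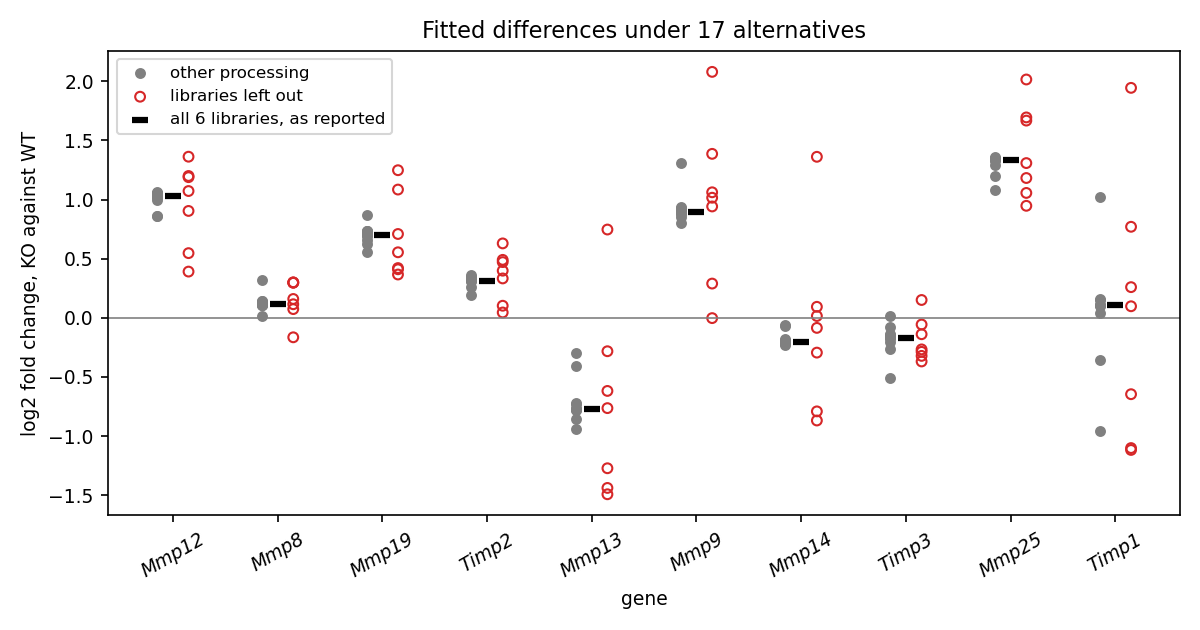
Fitted log2 fold change of KO against WT for each of the 10 genes with all 6 libraries (black bars), under 10 other ways of processing (grey) and with libraries left out (red circles). Mmp12, Mmp19, Mmp25 and Timp2 stay above 0 throughout, while Mmp8, Mmp9, Mmp13, Mmp14, Timp1 and Timp3 cross 0 in at least 1 alternative.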

How the data were processed

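Poly(A) RNA of 6 libraries (3 WT, 3 KO) was sequenced from stranded libraries, per the labels' protocols. The deposited files hold raw gene counts in the layout of STAR, and the submitters' processing notes name STAR 2.5.1b, DESeq2 and GRCm38 without a role. The annotation release was not given in the sources used here. The reverse-strand column was used, which held 95.6% to 97.5% of stranded gene reads, and both runs of WT replicate 3 were summed. Rows that name no gene (25.6% to 47.8% of reads) were left out. Symbols, positions and exon lengths came from GENCODE M21, which matched 46488 of 46983 genes.

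Counts were filtered with filterByExpr, scaled by TMM and tested two-sided with edgeR 4.0.16 (glmQLFit, robust, in R 4.3.3), with adjusted p under 0.05 as the threshold. Tested on simulated data, the fit recovered the larger changes and kept unadjusted p-values of unchanged genes near their nominal rate. The simulated libraries were drawn independently of each other, so the simulation cannot show how the fit behaves where libraries vary together. In the data themselves, 1.45% of all tested genes had an unadjusted p under 0.05 by edgeR. That share is below 0.05, the rate expected where no gene differs, so the simulated rate does not describe these data. In simulations with dispersions that vary gene by gene, the fit made more false calls than the 0.05 threshold allows. Single calls, such as those of some alternatives, therefore need caution. DESeq2 1.42.0, limma 3.58.1 (voom), other scalings and filters, a replicate block and leaving out libraries were alternatives. The members and lists were chosen with earlier results of these data known. Of each pathway list the 2 genes of highest mean CPM and the gene of lowest p were named. For likeness, the 3 nearest profiles of log2(CPM + 0.5) among genes of at least 5 CPM were taken for each member.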

Additional observations from a re-analysis of the deposited data

How the results depend on the processing

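The count of members called was 0 in each of the 17 alternatives. Over all genes, edgeR called 2 genes with library size only and 9 without a low-count filter, DESeq2 called 1, and leaving out single libraries gave 0 to 5. A replicate block gave 13 genes, a median of 0.53 over the 10 members and 0 members called. Deviations of same-numbered libraries correlated at -0.31, -0.04 and -0.18, and WT replicate 1 correlated best with KO replicate 3 (0.46). The deviations were taken from group means that include the shallow WT replicate 3, so they cannot settle whether shared numbers pair the libraries. The median log2 fold change of the members was 0.15 to 0.83 over the alternatives, and 0.18 to 0.83 with single libraries left out. The median of all genes was -0.32 with DESeq2 and 0.13 without WT replicate 1, against 0.01. Mmp12 (0.39 to 1.36), Mmp19 (0.37 to 1.25), Mmp25 (0.95 to 2.02) and Timp2 (0.05 to 0.63) kept their sign in all 17. Timp1 turned to -0.36 with DESeq2, -0.96 with limma-voom and -1.12 with WT replicate 3 and KO replicate 2 both left out, and Timp3 to 0.012 with the replicate block. With single libraries left out, values ran from -1.10 to 1.95 for Timp1, -0.37 to 0.15 for Timp3, -0.87 to 1.36 for Mmp14, -0.16 to 0.30 for Mmp8, -1.49 to 0.75 for Mmp13 and -0.0022 to 2.08 for Mmp9. The cause was not tested. Divided by the longest transcript in place of all exons, Mmp12 stood at 271.9, Mmp14 at 11.4 and Timp3 at 3.76 CPM per kb. The depth of WT replicate 3 limits each comparison, since 7 of the 10 genes had any read in it.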

Other observations

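WT replicate 3 held a few reads of genes that had none in the 5 deep libraries: 3 of Col3a1, 1 of Lum, 1 of Mmp3 and 1 of A2m, a protease inhibitor. These genes were chosen after their values were seen.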
